A study of Mus musculus with 6 samples.

Results

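A set of 9 transcription factors known for setting or holding the epithelial state was followed in tumor cells grown from a mouse mammary carcinoma, namely Grhl1, Grhl2, Grhl3, Ovol1, Ovol2, Elf3, Ehf, Klf4 and Klf5. They were taken by gene symbol, with no use of their values, and make up 9 of the 24129 gene names in the table. 4T1 is a transplantable mammary tumor line of the BALB/c mouse that serves as a model of triple negative breast cancer. A green fluorescent derivative, 4T1GFP, had been grown as a mammary fat pad tumor in BALB/c mice, and the resected tumor had been dissociated, sorted by flow cytometry and cultured. The T1 population (4T1A in the labels, 3 libraries) was GFP low, adherent and epithelial in shape, proliferated fast and was aggressive in mice. The T2 population (4T1NA, 3 libraries) was GFP high, round and loosely attached, proliferated slowly and was less aggressive. Both carried the same GFP marker and were kept in the same DMEM/F-12 medium with serum and antibiotics, but T2 cells were, unlike T1 cells, passaged as a suspension without trypsin. All T1 and T2 libraries trace back to cultures from 1 tumor model. Epcam and CD140a, the product of Pdgfra, were part of the sorting scheme. Both populations were GFP-positive tumor cells that grew up in a culture of sorted GFP-negative, CD140a-positive cells and were then resorted by GFP.

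Grainyhead factors (Grhl1 to Grhl3) bind and open enhancers of genes for cell junctions and the epithelial barrier. Ovol zinc finger factors repress regulators of the mesenchymal state such as Zeb1. Elf3 and Ehf are ETS factors found mainly in epithelia, and Klf4 and Klf5 are Krüppel-like zinc finger factors that balance differentiation and growth in epithelial layers. In mammary carcinoma such factors are studied because cells that pass towards a mesenchymal state often lose several of them.

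T1 cells held far more mRNA of Ovol1, Grhl1, Ovol2 and Elf3 than T2 cells, between 4.21 and 22.6 times on the fitted scale. Grhl2, the most abundant of the grainyhead factors, was only 1.41 times higher in T1, and Klf5 was 1.68 times higher in T2. Klf4 did not pass the test, Grhl3 was read in T1 libraries and never in T2 libraries, and Ehf had no read in any library. The 9 factors thus did not move as a block between the populations. The plot of values by library shows all 6 libraries for each gene.

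**Figure D1:**
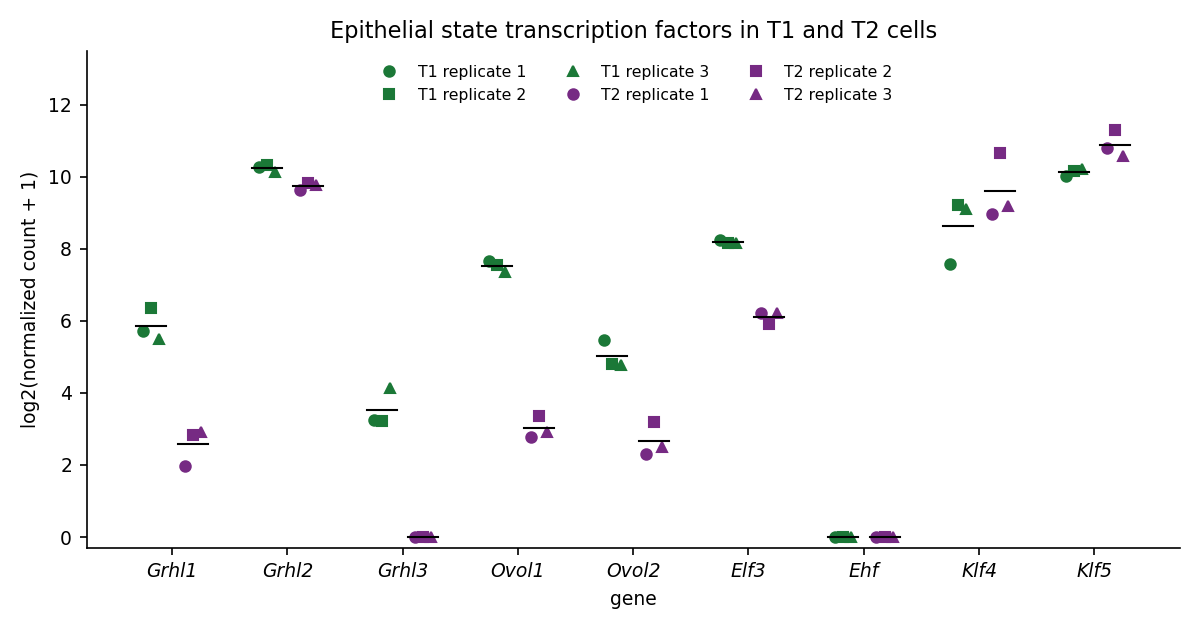
Normalized counts of the 9 factors on a log2 scale after adding 1 (y axis), by gene (x axis). Each symbol is a library, green for T1 and purple for T2, with the shape giving the replicate and the black line the mean of 3. T1 symbols lie above T2 symbols for Grhl1, Grhl2, Grhl3, Ovol1, Ovol2 and Elf3, below them for Klf5, and among them for Klf4, and Ehf lies at 0 throughout.

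A normalized count is a gene's read count divided by the size factor of its library, so that 1 read was worth between 0.928 and 1.06 normalized counts. The libraries held 18133227 to 20839686 reads on genes. The 11514 genes that averaged 10 or more normalized counts across all 6 libraries entered a limma fit to log2(normalized count + 1), a scale that understates fold changes of low genes, with Benjamini-Hochberg adjustment over all of them. A pair of calls were read, an adjusted p under 0.01, and the same with an absolute log2 fold change above 2, named below as both filters. Among all genes compared, 49.5% passed the adjusted p alone (25.1% higher and 24.4% lower in T1), 8.37% passed both filters (4.17% higher and 4.2% lower), and 68.1% had values that did not overlap between the groups. An exact two-sided permutation test on a single gene cannot go below p = 0.1 with 3 libraries against 3. The submitters call the libraries independent replicates, with no word on separate tumors, so p-values measure the spread between these libraries. In bulk RNA fewer cells that express a gene and less RNA in each cell cannot be told apart. Of the epithelial markers, Krt8 and Krt18 were high in both populations and did not pass (log2 fold changes of 0.20 and 0.10), so that T2 cells kept these simple epithelial keratins. Of 8 epithelial markers, 7 were compared and 5 were higher in T1, of which Krt19 and Cldn4 entered only through T1 (summed level of 97134 to 116909 normalized counts against 37622 to 43999). Of 10 fibroblast markers, 3 were compared, Col1a1 and Postn higher and Pdgfra lower in T1 (summed level of 353 to 403 against 997 to 1297). Col1a1 and Postn entered only through T1 and could hardly enter without being higher there. Pdgfra encodes CD140a, used in sorting, and gave 206, 191 and 201 normalized counts in T1 and 996, 1004 and 1295 in T2. Col3a1, Lum, Pdgfrb and Thy1 had no read in any library. Of 10 leukocyte markers, only Cd68 was compared and it did not pass (summed level of 59.3 to 87.8 against 92.8 to 126), Tyrobp, Cd3e, Adgre1 and Fcer1g were among those with no read, and none of 8 endothelial markers was compared (1.95 to 16.9 against 0 to 6.50). The part of these markers in the results below was not tested.

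Of the 9 factors, 7 reached the mean for comparison and 2, Grhl3 and Ehf, did not. Of these 7, 6 passed the adjusted p, 5 higher and 1 lower in T1, and 4 passed both filters, all higher in T1. Grhl1, Ovol1 and Ovol2 reached that mean only through their T1 libraries, since their T2 means lay under 10 normalized counts, so they could hardly enter without differing. The count of 4 is therefore a description and is not set against the background share as support.

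**Figure D2:**
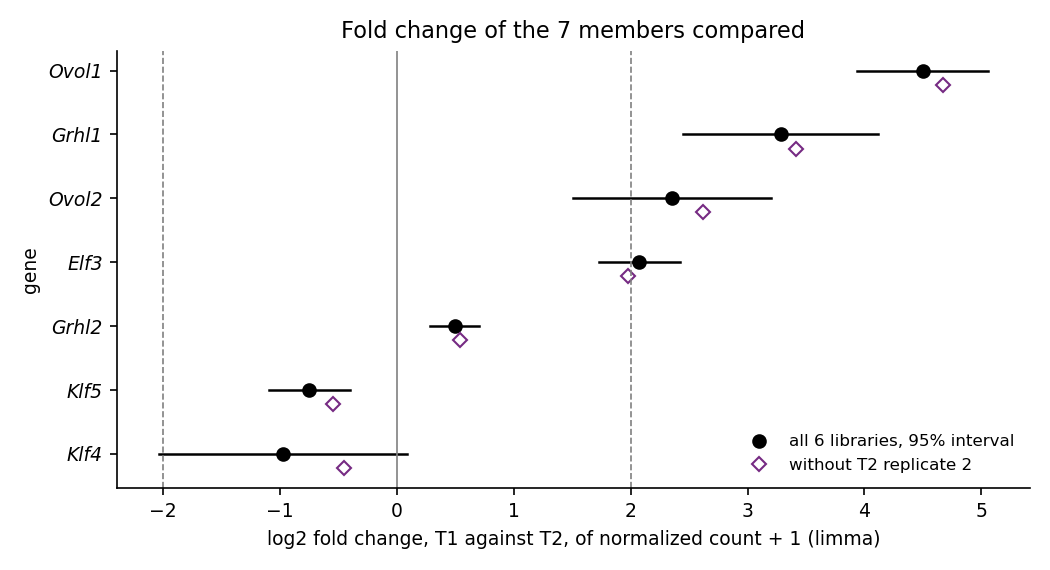
Log2 fold change of T1 against T2 for the 7 factors compared (x axis), by gene (y axis). Black points are limma estimates from all 6 libraries with 95% intervals, open diamonds are estimates without T2 replicate 2, and dashed lines mark a log2 fold change of 2 in either direction. Ovol1 stands highest at 4.50, Elf3 moves across the dashed line from 2.07 to 1.97 without that library, and the interval of Klf4 crosses 0.

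Among the grainyhead factors, Grhl1, which acts in epidermal differentiation and desmosome genes, lies on chromosome 12 at chr12:24572283-24617391 (plus strand, mm10). Its T1 libraries gave 51.8, 80.9 and 43.9 normalized counts (replicates 1 to 3) and its T2 libraries 2.94, 6.14 and 6.50. Every T1 library stood well above every T2 library, and T2 held 3 to 7 reads per library. This came to a log2 fold change of 3.28 ± 0.38 (SE) with an adjusted p of 3.2e-05 (limma), a 9.73-fold difference.

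Grhl2, the grainyhead factor best known for keeping E-cadherin and other junction genes active, lies at chr15:37233036-37363569 on the plus strand. It gave 1237, 1282 and 1122 normalized counts in T1 and 801, 915 and 868 in T2. The groups did not overlap, with the lowest T1 library at 1122 and the highest T2 library at 915. The log2 fold change was 0.49 ± 0.094 (SE), with a 95% interval of 0.29 to 0.70 and an adjusted p of 0.00102 (limma), past the adjusted p and far from the fold filter. T2 cells thus kept 0.71 of the T1 mean of this gene.

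Grhl3, which acts in skin barrier formation and neural tube closure, lies at chr4:135541888-135573630 on the minus strand. It had 8, 9 and 17 reads in the T1 libraries, or 8.46, 8.37 and 16.6 normalized counts, and 0 reads in each T2 library. With a floor of 3 reads per library in T2, T1 was at least 3.8-fold higher. Its mean over the 6 libraries was 5.57 normalized counts, under the limit, so it was not compared.

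Per kilobase of annotated exon, Grhl2 made up 89.4% to 92.1% of the summed grainyhead level in T1 libraries and 98.8% to 99.4% in T2 libraries. Grhl1 made up 5.50% to 8.77% in T1 and 0.567% to 1.15% in T2. The summed grainyhead level was 156 ± 11.2 normalized counts per kb (SD, n = 3) in T1 and 101 ± 6.98 in T2, a smaller gap than that of Grhl1 alone because Grhl2 carries most of the sum.

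Ovol1, a repressor that acts in epidermal and germ cell differentiation, lies at chr19:5549136-5560646 on the minus strand. It gave 199.98, 185 and 162 normalized counts in T1 and 5.88, 9.21 and 6.50 in T2. The T1 libraries lay close together and the T2 libraries held 6 to 9 reads each. The log2 fold change of 4.50 ± 0.25 (SE), adjusted p = 2.09e-07 (limma), was the 153rd highest of the 11514 genes compared.

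Ovol2, its paralog, which keeps mammary and other epithelial cells from taking a mesenchymal shape, lies at chr2:144305175-144332146 on the minus strand. It gave 43.4, 27.0 and 26.4 normalized counts in T1 and 3.92, 8.19 and 4.64 in T2. The groups were apart, at low levels in both. Its log2 fold change was 2.35 ± 0.38 (SE), with a 95% interval of 1.51 to 3.20 that spans the fold filter and an adjusted p of 0.000354 (limma). With a pseudocount of 5 in place of 1 its log2 fold change was 1.81, under the fold filter. Ovol3, the third family member, had 1 library above 0.

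Per kilobase, Ovol1 was the larger share of Ovol1 and Ovol2 together in T1, at 73.6% to 80.6%, and the smaller share in T2, at 40.5% to 47.6%. The T2 shares rest on 22 reads of Ovol1 and 17 of Ovol2 over the 3 libraries. Part of the exons of both genes is shared with annotated genes on the other strand, 19.8% of the Ovol1 exon bases with the pseudogene Gm31166 and 17.0% of those of Ovol2 with 1700108N11Rik. The strand setting of the read counting is not given in the sources used here, and those 2 genes have no value in the table, so reads of either strand could not be told apart.

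Elf3, an ETS factor induced in epithelial differentiation and inflammation, lies at chr1:135253575-135258568 on the minus strand. It gave 302, 284 and 288 normalized counts in T1 and 73.4, 59.4 and 73.3 in T2. Both groups were tight, with a coefficient of variation of 3.21% in T1 and 11.8% in T2, near the 5.82% and 11.9% that counting alone gives. Its log2 fold change was 2.07 ± 0.16 (SE), adjusted p = 1.74e-06 (limma), a 4.21-fold difference. Without T2 replicate 2, its lowest library, the value was 1.97 and missed the fold filter while still passing the adjusted p.

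Ehf, the ETS factor closest to Elf3 in epithelial use, lies at chr2:103263433-103303278 on the minus strand. It had 0 reads in all 6 libraries. Its chromosomal neighbour Elf5, an ETS factor of milk-producing cells, had 1 read in all. These epithelial ETS genes were thus at or under the limit of detection in T1 as well as in T2, in contrast to Elf3.

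Klf5, which promotes growth of basal and transit epithelial cells, lies at chr14:99298691-99315036 on the plus strand. It gave 1049, 1149 and 1186 normalized counts in T1 and 1780, 2516 and 1516 in T2. All T2 libraries were above all T1 libraries, and T2 replicate 2 was the highest. The log2 fold change of T1 against T2 was -0.75 ± 0.16 (SE), with a 95% interval of -1.10 to -0.40 and an adjusted p of 0.00195 (limma). It was the only one of the 7 factors compared that was higher in T2 past the adjusted p.

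Klf4, which drives terminal differentiation in gut and skin and is also one of the reprogramming factors, lies at chr4:55527143-55532466 on the minus strand. It gave 190, 593 and 548 normalized counts in T1 and 503, 1616 and 582 in T2. The groups overlapped, with T1 replicate 1 low and T2 replicate 2 high. The log2 fold change was -0.98 ± 0.48 (SE), with a 95% interval of -2.04 to 0.087 and an adjusted p of 0.0991 (limma), so no difference was established in this fit. With the replicate number added as a block the adjusted p was 0.00363 (limma). Its coefficient of variation was 49.7% in T1 and 69.0% in T2, against 4.66% and 3.32% from counting alone. On the log2 scale its SD within groups was 0.91, higher than in 99.2% of the genes compared, whose median was 0.14.

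T2 replicate 2 also stood high in some other Klf genes. Of the 12 Klf genes compared, 9 had their highest T2 value in that library, against 34.0% of all genes compared. The 9 include Klf4 and Klf5, already seen to be highest there, so the count is a description. Klf3, Klf8 and Klf9 were not highest there, at 0.97, 0.63 and 1.05 times the mean of T2 replicates 1 and 3. Of all genes compared, 2.27% were in T2 replicate 2 over 1.5 times every other T2 library. That share was larger, 3.54%, for T1 replicate 3 against the other T1 libraries. Relative to the mean of T2 replicates 1 and 3, T2 replicate 2 held 2.98 times as much Klf4 and 1.53 times as much Klf5, and also 3.35 times as much Klf10 and 4.29 times as much Klf11. A list of 10 immediate-early genes, which respond within minutes to handling, serum or stress, was drawn up after the values of Klf4 had been seen. All 10 of them (Fos, Fosb, Jun, Junb, Egr1, Atf3, Ier2, Ier3, Dusp1 and Zfp36) were highest of the T2 libraries in replicate 2, with a median of 2.27 times the mean of the others. Of the T1 libraries, replicate 2 was highest in 9 of 10. Their summed level was 23660, 38476 and 20185 normalized counts in T1 and 35733, 75172 and 35621 in T2. Without T2 replicate 2, the log2 fold change of Klf4 was -0.45 (adjusted p = 0.381, limma) and that of Klf5 was -0.54 (adjusted p = 0.00226). Leaving out T1 replicate 1, the lowest T1 library of Klf4, moved Klf4 as far, to -0.45 (adjusted p = 0.366, limma). Klf5 was then -0.70 (adjusted p = 0.00908, limma). The part of immediate-early activity in the Klf4 and Klf5 values was not tested.

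**Figure D3:**
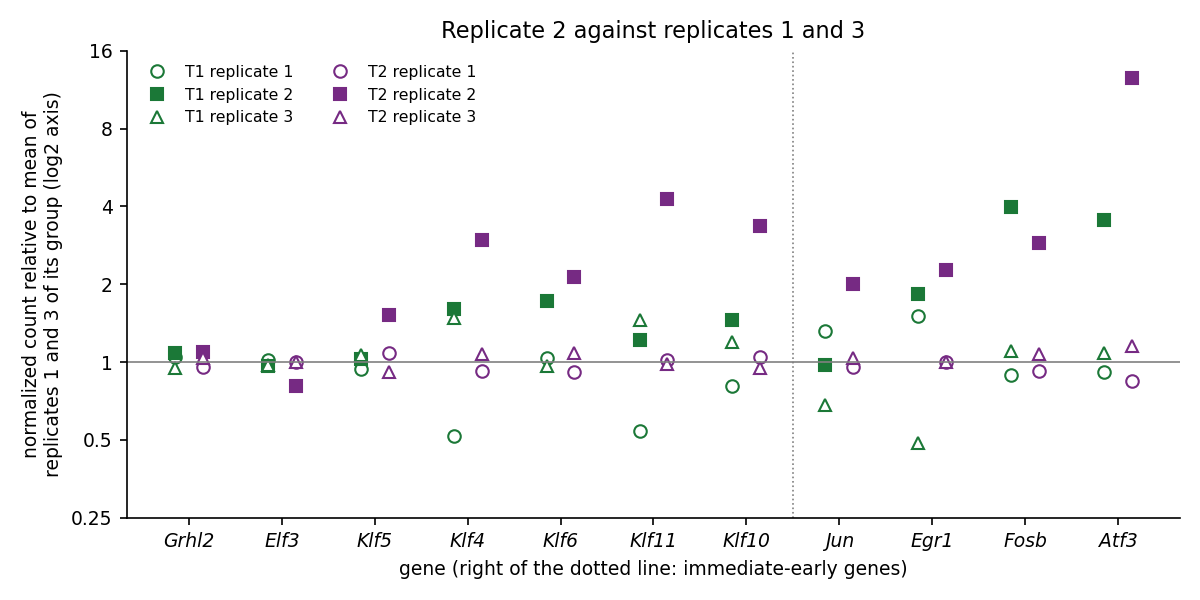
Normalized count of each library divided by the mean of replicates 1 and 3 of its group (y axis, log2 scale), for 7 transcription factors and 4 immediate-early genes (x axis, apart by a dotted line). Filled squares are replicate 2, open symbols replicates 1 and 3, green for T1 and purple for T2. The purple square of Klf4 stands at 2.98 and that of Klf11 at 4.29, while those of Grhl2 and Elf3 stand at 1.10 and 0.809. Not all Klf genes are plotted, and Klf3, Klf8 and Klf9, not highest in T2 replicate 2, are among those left out.

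Levels of different genes were set side by side per kilobase of exon. In T1 the order ran from Klf5 at 217 ± 13.7 normalized counts per kb (SD, n = 3) through Klf4 at 146 ± 72.3, Grhl2 at 141 ± 9.58 and Elf3 at 131 ± 4.22. The ranges of Klf4, Grhl2 and Elf3 overlapped, so their order is not resolved. Ovol1 followed at 52.3 ± 5.48, then Ovol2 at 15.3 ± 4.57 and Grhl1 at 10.6 ± 3.52, whose ranges overlapped, and Grhl3 at 4.00 ± 1.69. In T2, Klf5 at 372 ± 99.6 and Klf4 at 295 ± 204 overlapped and stood above Grhl2 at 93.0 to 106 (lowest and highest library) and Elf3 at 31.0 ± 3.64. The remaining factors lay at 2.64 ± 1.08 per kb (Ovol2), 2.06 ± 0.509 (Ovol1) and 0.937 ± 0.354 (Grhl1). Grhl1, Ovol1, Ovol2 and Elf3 together summed to 197 to 223 per kb in T1 libraries and 34.4 to 38.3 in T2 libraries, while all 9 factors summed to 717 ± 73.9 and 804 ± 303, with overlapping ranges. The makeup of the sum differed, with Elf3 giving 16.5% to 21.5% of the total in T1 and 2.32% to 5.32% in T2.

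**Figure D4:**
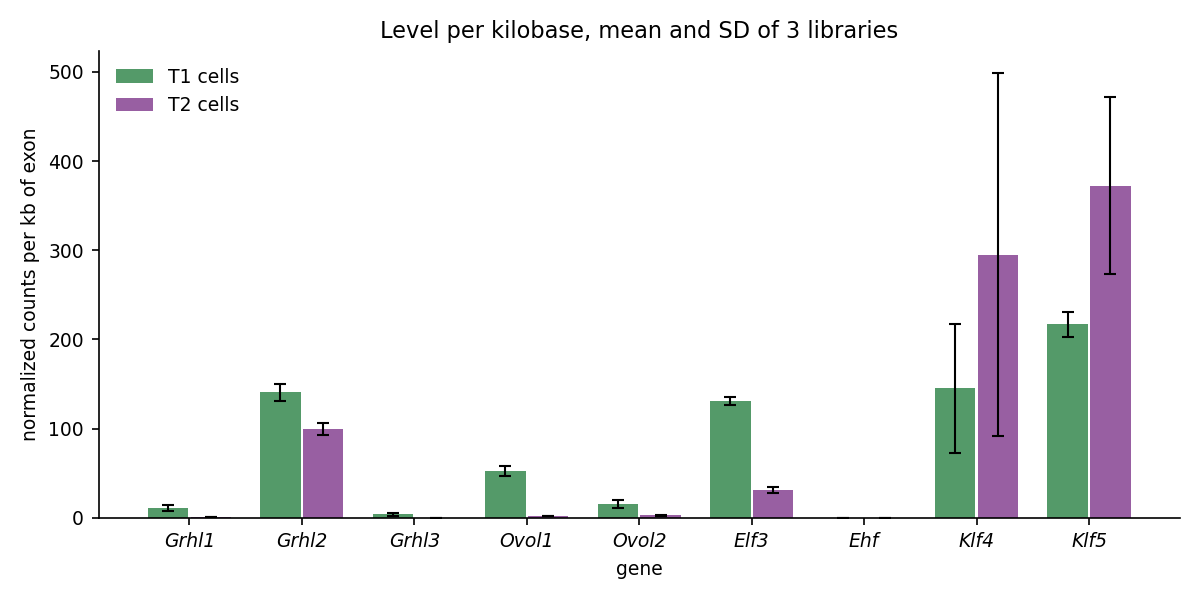
Level of each factor in normalized counts per kb of annotated exon (y axis, linear), by gene (x axis). Bars are means of 3 libraries and lines are SDs, green for T1 and purple for T2. Klf5, Klf4 and Grhl2 are the highest in T2, while Elf3 and Ovol1 are prominent in T1 and low in T2.

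Promoter sequence was given by RefSeq (GRCm38.p6, the mm10 build) for Grhl1, Grhl3, Ovol2, Elf3 and Klf4, as windows from 250 bases before to 50 after the start of transcription. The motifs searched on both strands were AACCGGTT (grainyhead), CAGGTG or CACCTG (the E-box used by Zeb and Snail repressors), CCGTTA or TAACGG (Ovol), CCGGAAGT or ACTTCCGG (ETS) and GGGNGGG or CCCNCCC (Klf and Sp). They occur in 0.146%, 20.2%, 2.76%, 3.89% and 48.1% of the 32851 windows of all genes. The windows of the 5 factors held no grainyhead, Ovol or ETS match. The E-box letters were found once in Elf3, at -140 from the start, and 2 times in Grhl3, at -19 and at 8 past it, and the Klf and Sp letters were found 5 times in Klf4, once in Elf3 and once in the upstream window of Grhl1. Elf3 and Grhl3 are shown because both were higher in T1 in the values above and hold the E-box, and Klf4 because its window holds letters that its own family reads. A match is a stretch of letters, and binding was not measured. The 250 bases before the start are printed 5′ to 3′ on the gene's strand (minus in each case), at chr1:135258473-135258722 for Elf3, chr4:135573633-135573882 for Grhl3 and chr4:55532476-55532725 for Klf4, with capitals for the E-box in Elf3 and Grhl3 and for the Klf and Sp letters in Klf4.
Elf3: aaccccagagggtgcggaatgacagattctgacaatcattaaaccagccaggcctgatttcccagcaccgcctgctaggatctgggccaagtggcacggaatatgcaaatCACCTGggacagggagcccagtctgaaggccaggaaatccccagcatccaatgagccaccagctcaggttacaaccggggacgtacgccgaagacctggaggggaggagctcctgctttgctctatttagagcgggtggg
Grhl3: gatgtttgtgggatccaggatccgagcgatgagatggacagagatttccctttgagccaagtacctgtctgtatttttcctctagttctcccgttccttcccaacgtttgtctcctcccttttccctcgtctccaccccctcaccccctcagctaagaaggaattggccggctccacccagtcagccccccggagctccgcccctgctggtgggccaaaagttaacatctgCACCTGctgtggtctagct
Klf4: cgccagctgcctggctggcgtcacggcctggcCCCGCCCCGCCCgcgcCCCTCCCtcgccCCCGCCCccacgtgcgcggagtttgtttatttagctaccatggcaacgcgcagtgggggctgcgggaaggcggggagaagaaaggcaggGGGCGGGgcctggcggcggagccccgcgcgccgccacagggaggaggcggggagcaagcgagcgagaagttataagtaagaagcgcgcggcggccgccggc

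Relatives of the 9 factors differed in both directions, as did all genes compared, of which 25.1% were higher and 24.4% lower in T1 past the adjusted p. The family counts below are a description. In the wider grainyhead and CP2 family, Tfcp2, a broadly expressed member, was lower in T1 (log2 fold change of -1.02, adjusted p = 0.00095, limma), Ubp1 did not pass at 0.19, and Tfcp2l1, an epithelial member, had 21.2, 17.7 and 16.6 normalized counts in T1 and 0.979, 0 and 2.78 in T2, under the limit for comparison. Of 26 ETS genes, 16 were compared, and 3 were higher (Elf3, Ets2 and Elf1) and 6 lower in T1 past the adjusted p. Past both filters were Elf3, higher in T1, and Etv1 and Etv5, lower in T1 by log2 fold changes of -2.41 and -2.05. Etv1, Etv4 and Etv5 form the PEA3 group, which responds to growth factor signaling, and Etv4 was also lower in T1 (-1.54). Elf3 and this group thus differed in opposite directions between the populations. Without T2 replicate 2 the ETS counts were 4 higher and 5 lower, with Erf gained and Elf2 lost.

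Of 17 Klf genes, 12 were compared, and 2 were higher (Klf8 and Klf16) and 3 lower in T1 (Klf2, Klf5 and Klf10) past the adjusted p. Over all genes compared, 49.5% passed it in either direction, so these counts do not set the family apart. Klf2, a factor of quiescent and shear-exposed cells, had the largest difference of the family at -2.61 ± 0.32 (SE, adjusted p = 5e-05, limma), with 105, 282 and 222 normalized counts in T1 and 879, 1495 and 1147 in T2. The median log2 fold change of the Klf genes compared was -0.21 with all libraries and 0.12 without T2 replicate 2, beside -0.0055 over all genes compared. Among other epithelial regulators, Foxa1 (2.05) was higher and Gata3 (-1.32) and Tfap2a (-1.23) were lower in T1 past the adjusted p. Foxa1 and Gata3, both luminal mammary factors, therefore differed in opposite directions. Trp63, Tfap2b, Tfap2c, Elf5, Spdef, Zfp750 and Barx2 were under the limit.

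Regulators of the mesenchymal state were examined because several of them and the factors above repress each other in other systems. Of 10 genes, 7 were compared. Over all genes compared, 25.1% were higher and 24.4% lower in T1 past the adjusted p. Zeb2 (-1.41), Twist1 (-1.44), Foxc2 (-1.42) and Prrx1 (-3.51) were lower in T1 past the adjusted p, Snai3 was higher (386 reads in T1 and 1 in T2, a ratio of 390 with an exact 95% counting interval of 69.6 to 15439), and Tcf4 and Snai1 did not pass. Snai1 had 338, 326 and 264 normalized counts in T1 and 550, 1201 and 383 in T2, again highest in T2 replicate 2. These intervals and floors cover counting error only. Zeb1, the best known target of Ovol repression, had 10.6, 13.02 and 9.76 normalized counts in T1 and 1.96, 1.02 and 2.78 in T2. It thus stood higher in T1, where Ovol1 and Ovol2 were also higher, at a level too low for comparison, while Zeb2 had 572, 708 and 789 in T1 and 1724, 1895 and 1847 in T2.

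Genes reported elsewhere as targets of these factors were counted as a description. Over all genes compared, 25.1% were higher and 24.4% lower in T1 past the adjusted p, and 8.37% passed both filters. Of 13 grainyhead targets, 10 were compared, and 8 were higher and 1 lower in T1 past the adjusted p, 7 of them higher past both filters. Cldn4, Esrp1, Tgm1 and Ovol2, 4 of these 10, reached the mean for comparison only through T1 and could hardly enter without being higher there, so these counts are not support for a direction of the list. This list holds Ovol2, a member of the set described here, and Epcam, which was used in sorting. Cdh1, the gene of E-cadherin, had 13726, 15461 and 15057 normalized counts in T1 and 484, 460 and 453 in T2, a log2 fold change of 4.98 ± 0.077 (SE, adjusted p = 7.63e-11, limma). Cldn4 (9.84), Epcam (6.46), St14 (4.76) and Prss8 (1.62) were also higher in T1, as were Tgm1, at least 9.83-fold against a floor of 3 reads per library, and Esrp1, a splicing regulator of epithelia. Esrp1 had 2090 reads in T1 and 1 in T2, a ratio of 2111 with a 95% counting interval of 378 to 83422. Spint1, the inhibitor of the protease made by St14, was lower in T1 at -0.70, and Arhgef19 did not pass at -0.13. Prss8, Spint1 and Arhgef19 thus stayed within 2 log2 units of 0.

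Of 7 Ovol targets, 5 were compared, with Zeb2, Vim (-2.15) and Id2 (-2.87) lower and Myc (1.27) higher in T1, and Notch1 not past the test. Of 8 targets of Elf3 and Ehf, only 3 were compared, with Ptgs2 (3.03) and Tgfbr2 (0.37) higher and Angpt1 lower in T1 (1 read in T1 and 103 in T2, a ratio of 102 with a 95% counting interval of 17.9 to 4066). Of 8 targets of Klf4 and Klf5, 7 were compared, with Fgfbp1 (16702 reads in T1 and 3 in T2, a ratio of 5623 with a 95% counting interval of 1924 to 27272), Cdh1, Tagln (1.02) and Pdgfa (0.97) higher and Cdkn1a (-3.28) and Ccnd1 (-1.32) lower in T1. Cdkn1a encodes the cell cycle inhibitor p21, and Ccnd1 and Ccnb1 encode cyclins. Ccnb1 did not pass (-0.025). The study reported faster proliferation of T1 cells, and its relation to these genes was not tested. Tgfbr2 and Tagln did not pass the adjusted p without T2 replicate 2. Snai3 and Fgfbp1 likewise entered only through T1, and Prrx1 and Angpt1 only through T2. Each list is short, 49.5% of all genes compared passed the adjusted p, and many of the listed genes are also controlled by factors outside the 9.

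**Figure D5:**
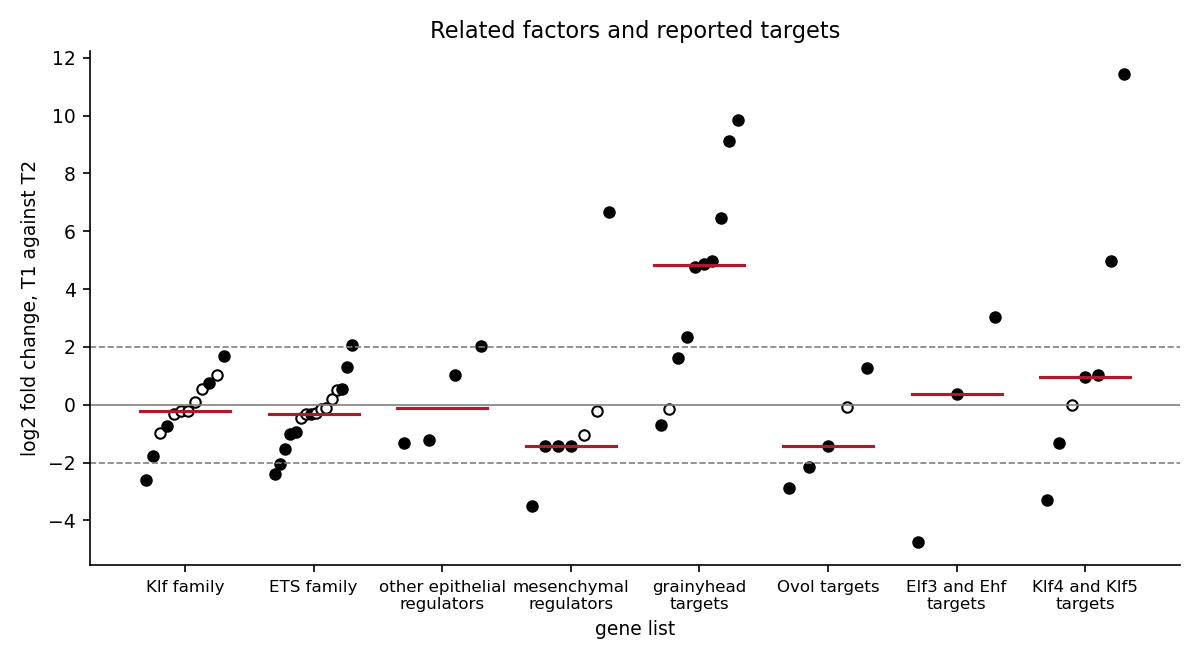
Log2 fold change of T1 against T2 (y axis) for each gene compared in 8 lists (x axis). Filled points passed an adjusted p of 0.01 and open points did not, red lines are list medians, and dashed lines mark 2 in either direction. Of the 10 grainyhead targets 7 lie above 2, of which Cldn4, Esrp1, Tgm1 and Ovol2 entered only through T1, while ETS and Klf genes lie on both sides of 0.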

How the data were processed

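RNA of T1 and T2 cells (3 libraries each) was sequenced from poly(A) mRNA. Adapter trimming (Trimmomatic), alignment to mm10 (TopHat2), gene counting (HTSeq) and scaling by size factors (DESeq2) were done by the authors, and the deposited signal is the resulting normalized count. Versions, annotation and strand setting are not given in the sources used here. All values were whole reads after rescaling, within 0.05 of a read, and 0 columns were left out.

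Samples were grouped by their labels. Genes averaging 10 or more normalized counts were tested in R 4.3.3 by limma 3.58.1 with a variance trend, after adding 1 and taking log2, with Benjamini-Hochberg adjustment. edgeR 4.0.16 and DESeq2 1.42.0 were run on the recovered reads as alternatives, with other pseudocounts, filters and normalization and with each library left out. All fits were tested on simulated data first. Exon lengths and coordinates came from the GENCODE M21 annotation of mm10, and promoter sequence from RefSeq. The genes named are the 9 factors, the listed relatives, regulators, markers and reported targets, the 2 genes nearest to each factor by Euclidean distance between centred log2 values over 6 libraries, and the adjacent protein-coding genes, and a few listed genes are not reported here. The factors and lists were chosen with earlier results of these data known, and the immediate-early list was added after the values of Klf4 were seen.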

Additional observations from a re-analysis of the deposited data

How the results depend on the processing

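Each factor compared kept its direction under every alternative run. The number of factors past both filters was 4 and became 2 where a mean of 50 normalized counts was required, because Grhl1 and Ovol2 then did not enter, 3 with a pseudocount of 5, and 5 with no filter, which added Grhl3 (log2 fold change of 3.54). Leaving out each library in turn gave 3 to 4 factors past both filters, with Elf3 lost without T2 replicate 2. The number past the adjusted p alone was 6 and ranged from 4 to 7. Klf5 missed the adjusted p without the variance trend (-0.75, adjusted p = 0.0138, limma), and leaving out each library moved it from -0.91 to -0.54 and Klf4 from -1.29 to -0.45. Over all genes, 964 passed both filters, 974 with edgeR or DESeq2, and 2445 at an adjusted p under 0.05 with a log2 fold change above 1.

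Adding the replicate number as a block gave Klf4 a log2 fold change of -0.98 past the adjusted p (0.00363, limma) and 967 genes past both filters. The numbers were not taken as pairs in the main fit. T1 and T2 libraries of the same number correlated at 0.057, 0.17 and 0.10 in their deviations from the group means. Those of different numbers correlated at -0.15 to 0.072, and T2 replicate 1 correlated best with T1 replicate 3. Whether libraries of the same number share a replicate effect was not tested, and the Klf4 call depends on this choice.

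Per kb of the longest transcript in place of all exons, levels in T1 were 17.0 for Grhl1, 245 for Grhl2, 61.4 for Ovol1, 20.8 for Ovol2, 139 for Elf3 and 337 for Klf5, and levels in T2 were 1.497 for Grhl1, 174 for Grhl2 and 578 for Klf5. Grhl2 then stood above Klf4 in T1, and in T2 its range overlapped that of Klf4. At this depth, genes with a few reads per library, such as Grhl1 and Ovol1 in T2, have folds that rest on the pseudocount.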

Other observations

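The genes with the most similar profiles over the 6 libraries, by distance between centred log2 values, were Srpk1 (distance of 0.059) and Nus1 (0.065) for Grhl2, and Filip1l (0.14) and Kdf1 (0.18) for Elf3. Kdf1, a factor of keratinocyte differentiation, gave 613 ± 5.48 normalized counts (SD, n = 3) in T1 and 140 ± 9.003 in T2. For Klf5 they were Gla (0.24) and AW554918 (0.26), for Ovol2 Ccnb1ip1 (0.43) and F3 (0.45), for Ovol1 Tubb2a-ps2 (0.50) and Krt85 (0.55), and for Grhl1 Mcf2l (0.55) and Rab15 (0.60). The nearest to Klf4, 1810011O10Rik (0.89) and Trib1 (0.90), were the farthest of these pairs. Tubb2a-ps2 and Krt85 had means of 22.8 and 21.5 normalized counts in T1 and no read in T2, so their distances to Ovol1 rest on the pseudocount. Mcf2l and Rab15 also entered only through T1, with T2 means of 9.75 and 3.58.

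Adjacent protein-coding genes were read beside the factors, where 49.5% of all genes compared passed the adjusted p. Ifnlr1, the interferon lambda receptor gene next to Grhl3, was higher in T1 with a log2 fold change of 3.77 ± 0.24 (SE, adjusted p = 5.17e-07, limma). Rnpep, next to Elf3, was higher in T1 at 0.73, Rad23b, next to Klf4, at 0.92, and Zfp706, next to Grhl2, was lower at -0.61, each past the adjusted p. Mgme1, next to Ovol2, Ap5b1, next to Ovol1, and both neighbours of Grhl1, Taf1b and Klf11, did not pass. Pibf1, next to Klf5, and Apip, next to Ehf, did not pass either. Klf12, the neighbour of Klf5, had a mean of 6.03 normalized counts in T1 and no read in T2.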
